A study of Mus musculus with 2 samples.

Results

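Irradiated mouse skin that had received 0.1% retinol was compared with irradiated skin without it. Both were sections of skin from female SKH-1 mice, a hairless strain, aged 10 to 12 weeks. One section came from skin exposed to ultraviolet radiation (UVR) and the other from UVR-exposed skin treated with 0.1% retinol, so both carried the irradiation. They are called UVR skin and retinol skin below. The labels used here name no vehicle, no schedule of irradiation or application, and no number of mice. The members are the Visium spots of these sections with at least 200 unique molecular identifiers (UMIs): 647 of the UVR section and 544 of the retinol section, or 1191 of the 3175 spots in the series' 4 sections. Untreated control skin (339 kept spots) and UVR-exposed skin that received 0.03% 9-cis HPR, a synthetic retinoid (644 kept spots), are given for comparison.

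These limits apply to every value. Each group had 1 section, so no test was possible, no spread between animals was measured, and intervals cover counting error only. UVR skin shared a capture area with control skin and retinol skin shared one with HPR skin, so the area and the treatment cannot be told apart. Each area carried an upper and a lower section, where upper was taken to be the piece with smaller image rows; the spot grid runs the other way, and reading it instead would put the HPR-labelled piece against the control-labelled piece. Genes and lists past 2-fold whose direction turns under that reading are named with it, and those under 2-fold are in the closing section where not named.

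Epidermis renews itself from a basal layer whose daughter cells withdraw from the cell cycle, make new keratins and end as a cornified barrier. UVR damages keratinocyte DNA and is followed by thickening of the epidermis, with stress keratins and cell-cycle genes switched on. Retinol is converted within keratinocytes to retinoic acid, which binds nuclear retinoic acid receptors paired with retinoid X receptors and alters transcription. Topical retinoids are known for changing keratinocyte growth and differentiation and for acting on dermal collagen.

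To compare like tissue, epidermal spots were defined as those with at least 1000 UMIs of which *Krt5*, *Krt14* and *Lor* made up at least 3%. These genes encode the paired keratins of the basal layer and loricrin, the main protein of the cornified envelope. In UVR skin 261 spots met the rule, 40.3% of kept spots (exact 95% interval 36.5 to 44.2) with 82.7% of UMIs. In retinol skin 176 spots met it, 32.4% (28.4 to 36.5) with 76.7% of UMIs. Median depths of epidermal spots were 6038 and 5517.5 UMIs, and totals were 2114788 and 1085484 UMIs. Spots nearest the 3% line held 3.01% inside and 2.81% outside in UVR skin, and 3.04% and 2.99% in retinol skin. More retinol spots lay close to it: 43 held 3 to 4% and 22 held 2 to 3%, against 20 and 14 in UVR skin. All 11 keratinocyte markers were present in both sets of epidermal spots, summing to 80070 CPM (UMIs scaled to a total of 1000000) in UVR and 53385 CPM in retinol skin. Most of each sum came from *Krt5*, *Krt14* and *Lor*, which defined the spots, so it is no separate check of the tissue. They made up 4.17%, 1.83% and 1.62% of epidermal UMIs in UVR skin and 2.9%, 0.817% and 1.31% in retinol skin. Markers of T cells, neutrophils, mast cells, endothelium and red cells stayed at or below 46.1 CPM in sum on both sides. Skeletal muscle markers, from the muscle layer under the skin, made up 0.0852% of epidermal UMIs in UVR skin and 0.0259% in retinol skin, and 8 of 9 measured muscle markers were called lower there. Among spots with under 0.05% of these markers, 108 genes were called higher and 177 lower of 1841. The deposited spots of retinol skin end on the outer side of the epidermis in a straight line, with 38 spots, 36 of them epidermal, in grid row 51 and none beyond it, so outer epidermis there may be missing. The 63 epidermal spots left of that line held *Krt16* at 1971 CPM, *Lor* at 16499 CPM, *Mcm2* at 201 CPM and *Alox8* at 690 CPM, and the 113 along it 2400, 11109, 250 and 1323 CPM. With those 63 retinol spots alone against all UVR epidermal spots, an alternative added after seeing the data, 106 genes were called higher and 295 lower of 2114. Of the genes named here that passed 2-fold, 107 had a value; all 107 kept their direction and 98 stayed past 2-fold. The log2 ratios of the others became *Krt15* (-0.74), *Itgb4* (-0.73), *Dsg1b* (-0.87), *Klk8* (-0.67), *Elovl1* (-0.97), *Ephx1* (-0.78), *Col1a1* (0.64), *Col5a1* (0.60) and *Kcnk1* (-0.98). Each spot lies over more than 1 cell, and cell types were not called. Among kept spots, 123 barcodes occur on both capture areas; barcodes encode position on the slide, so these are not shared cells.

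**Figure D1:**
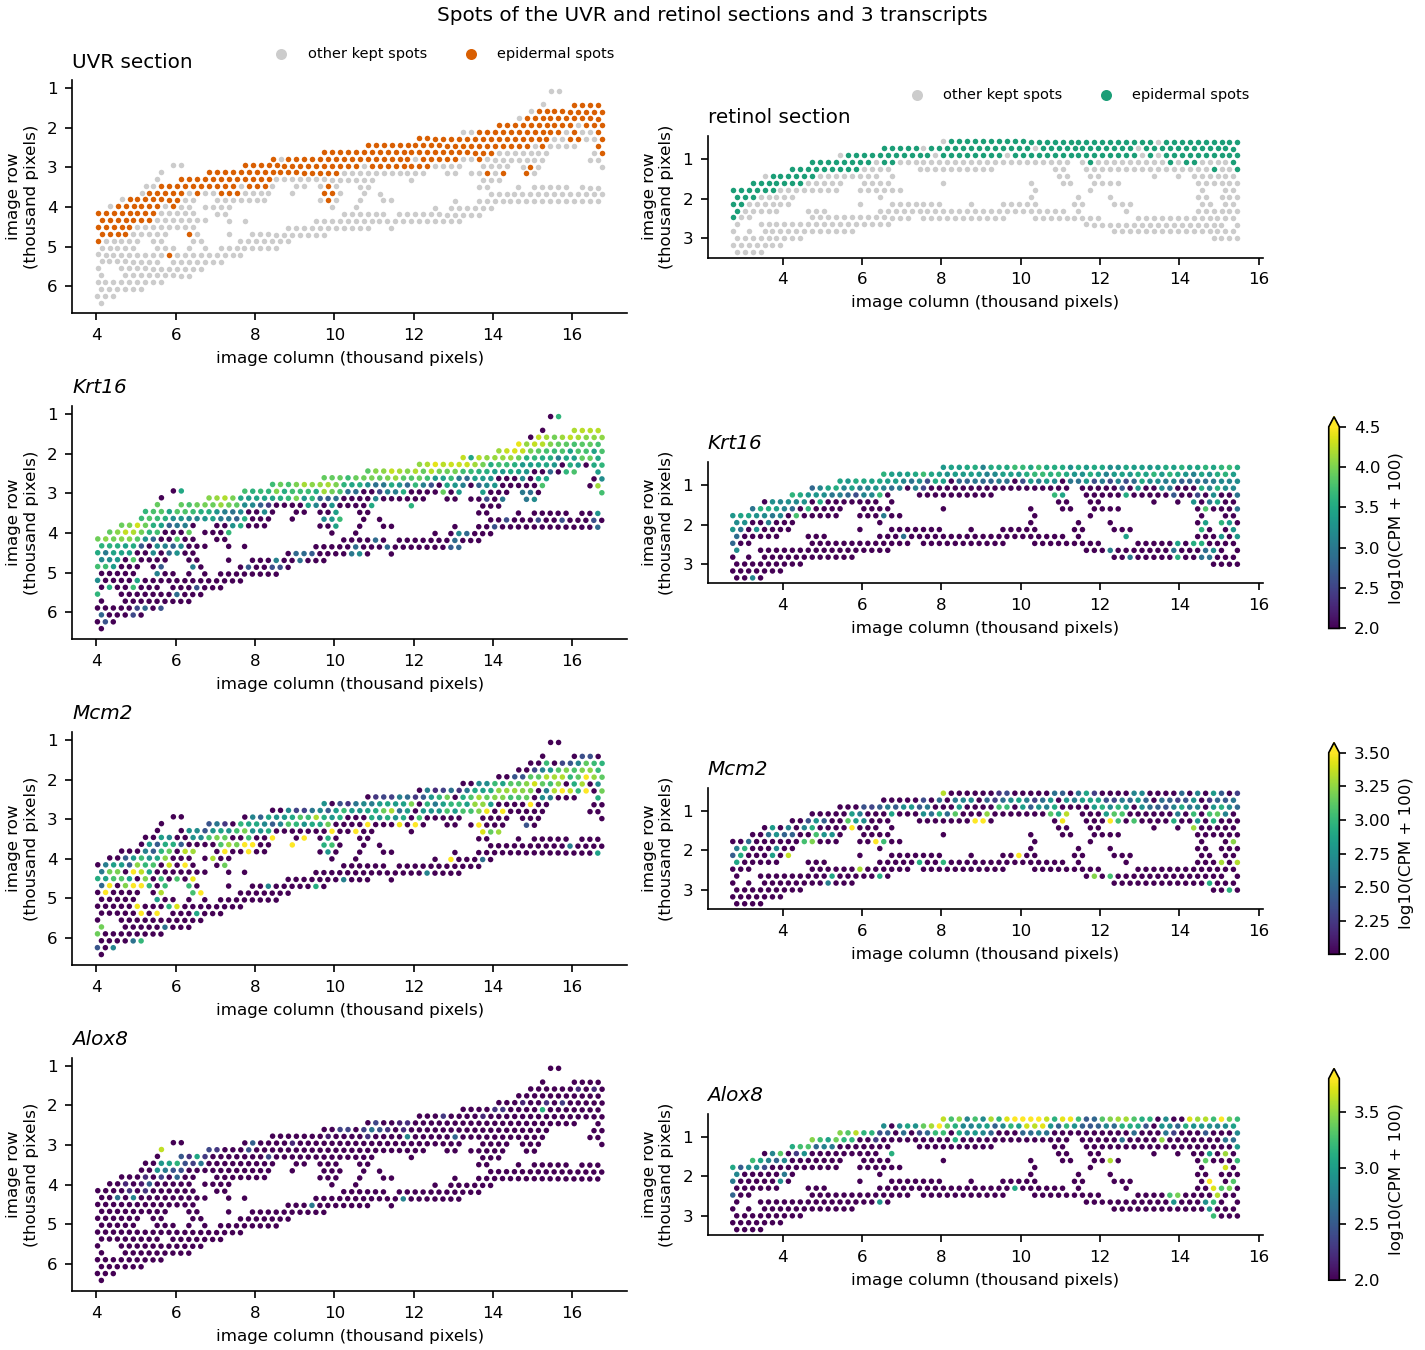
Maps of the kept spots of the UVR section (left) and the retinol section (right), with image column and row in pixels (axis values times 1000). The top row marks epidermal spots; the other rows colour each spot by log10(CPM + 100) of *Krt16*, *Mcm2* and *Alox8*, and the colour scale ends below the highest spots. In epidermal spots *Krt16* stood at 8784 CPM in UVR and 2245 CPM in retinol skin, and *Alox8* at 56.3 and 1094 CPM.

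Epidermal spots were compared as the ratio of CPM, retinol over UVR, of each gene's summed UMIs. A gene was called where the ratio was at least 2-fold. Of 2378 genes that reached 100 UMIs in both sections together, 108 (4.54%) were called higher in retinol skin and 242 (10.2%) lower, and the median log2 ratio was -0.0605. For 50 and 95 of these the whole counting interval lay beyond 2-fold. UVR skin had about 1.95 times the epidermal UMIs, so a gene reached the minimum more easily through UVR skin. As a view of unevenness within each section, epidermal spots were also split into 4 strips of equal spot number from left to right, which are not replicates. All 4 retinol strips lay above all 4 UVR strips for 350 genes (14.7%) and below them for 423 (17.8%). Among called genes the strips were apart for 96 of 108 higher and 210 of 242 lower. Gene lists are described below by members with at least 50 UMIs. With that minimum 174 of 3467 genes were called higher (5.02%) and 421 lower (12.1%), with a median log2 ratio of -0.089, against which list counts should be read.

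**Figure D2:**
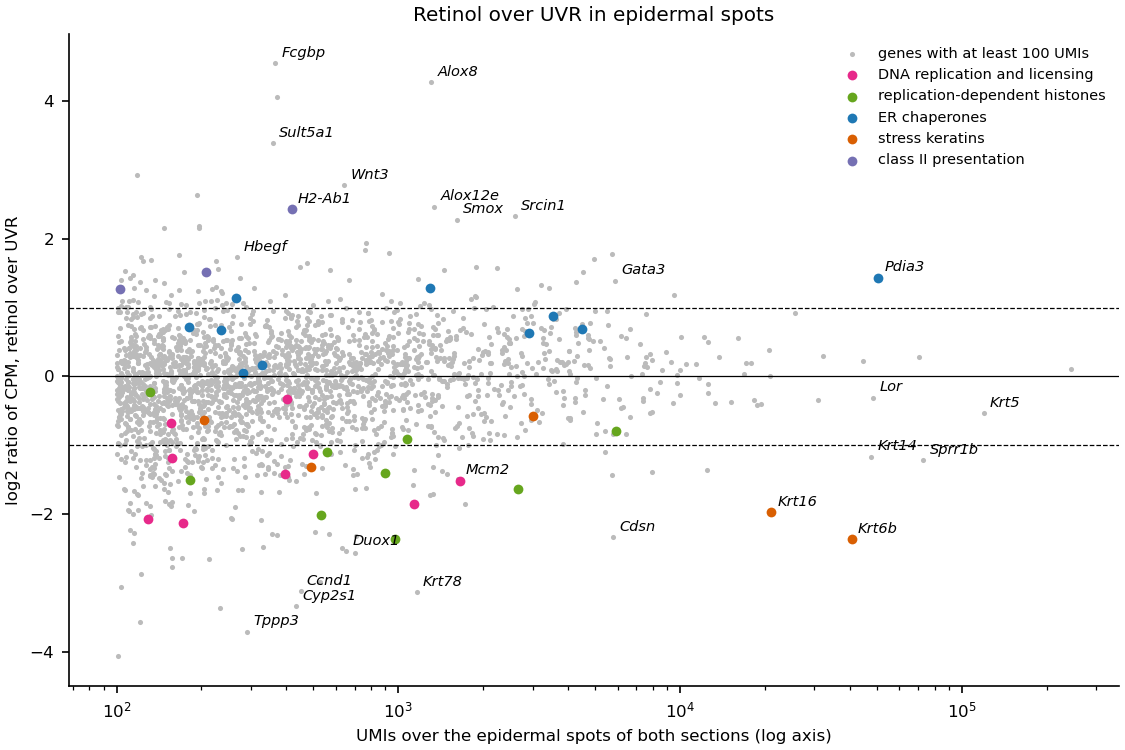
Log2 ratio of CPM, retinol over UVR, in epidermal spots (vertical) against the gene's UMIs over both sections (horizontal, log axis). Each point is 1 of 2378 genes with at least 100 UMIs; dashed lines mark 2-fold and colours mark 5 gene lists. Replication genes, histones and stress keratins lie below 0, while ER chaperones and class II presentation genes lie above it.

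Stress keratins, the intermediate filament genes that thickened or wounded epidermis switches on, were lower in retinol skin. All 5 measured members of their list had lower values in retinol skin, 3 of them at least 2-fold, and the list's median log2 ratio was -1.31. The list's members include *Slpi* (log2 ratio -0.63), a secreted protease inhibitor and not a keratin, and the other measured members were *Krt6a*, *Krt6b*, *Krt16* and *Krt17*. *Krt6b* (ENSMUSG00000023041, chromosome 15, 101676023 to 101680293, GRCm38.p6) stood at 17489 CPM in UVR skin and 3386 CPM in retinol skin, 5.17-fold lower (95% interval 4.99 to 5.345). *Krt16* (ENSMUSG00000053797, chromosome 11, 100246091 to 100248902), the partner of *Krt6* keratins, stood at 8784 CPM in UVR skin and 2245 CPM in retinol skin, 3.91-fold lower (3.75 to 4.08). Its strips ran at 7743, 6789, 10399 and 9833 CPM in UVR skin and at 1878, 2169, 2606 and 2329 CPM in retinol skin, so the sections did not overlap. *Krt6a* was 2.48-fold lower, while *Krt17* at 1.485-fold lower did not reach the 2-fold rule. Control skin had 433 CPM of *Krt6b* and 255 CPM of *Krt16*, and HPR skin 4993 and 2825 CPM. Retinol skin therefore lay below UVR skin and well above control skin for both genes. *Krt6a* and *Krt6b* are near-identical copies, and probes may not divide them cleanly. Read by the spot grid, *Krt6a*, *Krt6b*, *Krt16*, *Krt17* and the list's median turned direction.

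Basal keratins were lower as well, but *Krt5*, *Krt14* and *Lor* also defined the epidermal spots, so their values are a description. *Krt14* made up 1.83% of epidermal UMIs in UVR skin and 0.817% in retinol skin, and *Krt5* 4.17% and 2.90%. *Krt15*, another basal keratin, had only 54 and 12 UMIs (2.31-fold lower, 1.22 to 4.74). *Itgb4*, the hemidesmosome integrin, was 2.6-fold lower and *Notch1* 2.525-fold lower. Other basal genes did not share this: *Itga6*, the integrin partner of *Itgb4*, had a ratio of 1.48 (1.05 to 2.08) and *Trp63*, the master factor of stratified epithelium, one of 1.645 (1.04 to 2.59). Of 10 measured basal genes 4 were called lower and none higher. The called genes include *Krt14*, and the measured ones also *Krt5*, both of which defined the spots. The others called were *Krt15*, *Itgb4* and *Notch1*. The hemidesmosome and basement membrane list had 1 of 9 members called, *Itgb4*, with a median of -0.13. *Krt14* and *Krt5* turned direction when read by the spot grid.

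Cell-cycle genes were mostly called lower. Of 13 measured genes of DNA replication and licensing 10 were called lower and none higher (median -1.41), as were 7 of 8 of mitosis and cyclins (-1.42). The MCM proteins form the helicase that is loaded at replication origins. *Mcm2* stood at 663 CPM in UVR skin and 232 CPM in retinol skin, 2.86-fold lower (2.5 to 3.28), with 255 CPM in control and 246 CPM in HPR skin. The strips gave 585, 510, 569 and 972 CPM in UVR skin and 216, 176, 321 and 221 CPM in retinol skin. Retinol skin was thus closer to control skin than to UVR skin for *Mcm2*. *Mcm3* was 3.62-fold lower (3.03 to 4.35), *Mcm4* 4.39-fold (2.69 to 7.61) and *Mcm5* 4.22-fold (2.41 to 7.95). *Tk1*, the thymidine kinase of S phase, was 2.66-fold lower and *Ticrr*, a replication initiator, 2.18-fold. The remaining members of the replication list were nearer 1, with *Rfc3* 1.59-fold, *Gins2* 1.26-fold and *Rfc1* 1.22-fold lower.

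*Ccnd1*, the D-type cyclin that drives cells out of G1, was among the 5 lowest genes by the naming rule of at least 200 UMIs and a direction shared by both image sides of each section. It had 425 UMIs in UVR skin and 25 in retinol skin, or 201 CPM in UVR skin and 23.03 CPM in retinol skin (8.73-fold lower, 5.83 to 13.6). Its partner kinase *Cdk4* was 2.72-fold lower (1.49 to 5.37), whereas *Cdk6* had a ratio of 1.67 on 35 and 30 UMIs. The mitotic genes *Cdk1*, *Aurkb*, *Ube2c*, *Incenp* and *Cenpm* had ratios from 0.237 (*Cenpm*) to 0.4225 (*Incenp*). Several of these rest on few transcripts, with 6 UMIs of *Cdk1* and 11 of *Aurkb* in retinol skin. Histones made for the S phase were lower too, with 8 of 11 called and a median of -1.51. *Hist1h2bk* was 5.12-fold lower (4.115 to 6.44), *Hist1h1e* 4.05-fold and *Hist1h2bj* 3.1-fold. Histone genes are close copies of each other, so single members are uncertain. *Ticrr* and *Hist1h2bk* turned direction when read by the spot grid.

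Promoters of the replication genes are shown because most of the group was lower. E2F factors switch on S-phase genes at sites written here as TTTGGCGC or TTTCCCGC, searched on both strands from 250 bases before to 50 after the RefSeq start (GRCm38.p6). Such a match was present for 9 of 28 replication genes in the table (32.1%), against 67 of 1870 genes measured in epidermal spots (3.58%) and 514 of 32851 promoters in all (1.56%). A match is a description of the sequence and not a measured site. The 28 genes include list members that were not measured here. *Rfc3*, which was not called, was among the genes with a match, and *Mcm2* was not. The promoter of *Mcm3* held 2 matches, at positions 20 and 39 after the start, and that of *Mcm5* held 1, at -149; capitals mark them.
Mcm3 (chr1:20820263-20820562, minus strand): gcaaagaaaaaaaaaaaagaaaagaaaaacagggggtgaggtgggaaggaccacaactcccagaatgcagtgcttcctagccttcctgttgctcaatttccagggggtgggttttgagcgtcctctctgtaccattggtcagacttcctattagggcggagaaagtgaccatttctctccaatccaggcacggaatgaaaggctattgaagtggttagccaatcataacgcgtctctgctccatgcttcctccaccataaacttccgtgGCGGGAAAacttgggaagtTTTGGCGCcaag
Mcm5 (chr8:75109259-75109558, plus strand): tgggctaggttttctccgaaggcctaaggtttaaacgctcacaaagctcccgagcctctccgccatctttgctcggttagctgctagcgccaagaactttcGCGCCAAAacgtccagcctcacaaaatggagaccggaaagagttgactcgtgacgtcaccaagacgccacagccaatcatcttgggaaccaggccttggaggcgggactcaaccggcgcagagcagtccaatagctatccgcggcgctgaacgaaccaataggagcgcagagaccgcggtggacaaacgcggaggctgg
Among all genes called lower 6 of 173 with a promoter in the table held the motif (3.47%), and among those called higher 1 of 90 (1.11%). The same stretches were searched for direct repeats read by retinoic acid receptors. These were 2 copies of AGGTCA or AGTTCA with 5 or 2 bases between. None of the 1870 measured genes held a match, and 13 of 32851 promoters did for each spacing (0.0396%).

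**Figure D3:**
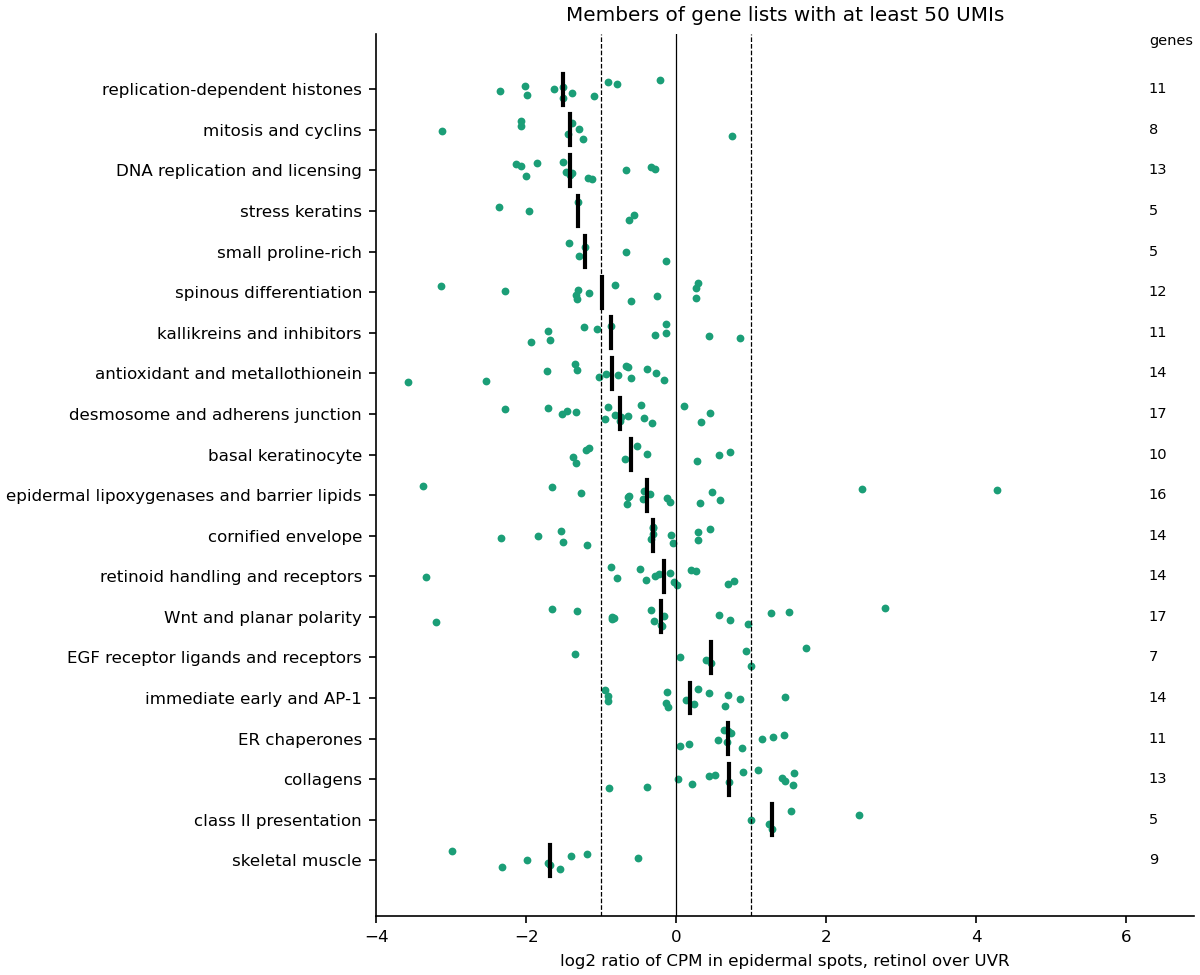
Log2 ratio of CPM in epidermal spots, retinol over UVR, for members of 20 gene lists that reached 50 UMIs in both sections together. Each point is 1 gene, bars are medians, dashed lines mark 2-fold and numbers on the right give the genes plotted. Histone, mitosis and replication lists have medians of -1.51, -1.42 and -1.41, and the class II list one of 1.27.

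Differentiation genes were divided. Of 12 spinous genes, those of the living suprabasal layers, 6 were called lower and none higher (median -0.99). *Krt78*, a suprabasal keratin, stood at 519 CPM in UVR skin and 58.96 CPM in retinol skin, 8.8-fold lower (6.835 to 11.5), and its strips did not overlap. The desmosomal cadherins *Dsg1a* and *Dsg1b* were 4.88-fold and 2.25-fold lower, and *Calml3* and *Sbsn* 2.51-fold and 2.48-fold. The main suprabasal keratins did not reach the rule, with *Krt10* at 1.76-fold lower (1.58 to 1.97) and *Krt1* at a ratio of 1.22 (1.07 to 1.38). *Krt10* was lower in both than in control skin, which had 6911 CPM against 668 in UVR and 380 in retinol skin.

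In the cornified envelope list 5 of 14 measured members were called lower and none higher, with a median of -0.31. *Lor*, which helped to define the spots, is among the measured members and was not called. *Cdsn*, the corneodesmosome protein that holds horny cells together, stood at 2490 CPM in UVR skin and 494 CPM in retinol skin, 5.04-fold lower (4.61 to 5.52). Control skin had 1092 CPM of it and HPR skin 745 CPM, so retinol skin lay under the control level. *Rptn*, *Cnfn* and *Asprv1* were 2.89-fold, 2.85-fold and 2.29-fold lower. The crosslinking enzyme *Tgm1* was measured at a ratio of 1.22 (1.16 to 1.28) and *Flg*, the precursor of natural moisturising factor, at 0.8045 (0.702 to 0.92). *Lor* gave 16160 and 13059 CPM against 79359 CPM in control skin, where 62 of 72 epidermal spots held more *Lor* than *Krt5*. The same was true of 50 of 261 UVR spots and 52 of 176 retinol spots. Retinol skin thus had relatively more *Lor*-led spots. By the median epidermal spot *Lor* differed the other way from its sums, at 2972 CPM in UVR skin and 5348 CPM in retinol skin. *Flg* did so too, with spot medians of 0 and 140 CPM. Among *Krt5*-led spots alone 81 genes were called higher and 213 lower of 2127, and among *Lor*-led spots alone 80 were called each way of 805. The direction of *Asprv1*, *Dsc1* and *Dsg1b* turned when read by the spot grid, and that of *Cnfn* when the epidermal rule was raised to 10%.

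Small proline-rich genes encode bridging proteins of the envelope that stressed epidermis makes in quantity. Of 5 measured members 3 were called lower, with a median of -1.21. *Sprr1b* stood at 28305 CPM in UVR skin and 12197 CPM in retinol skin, 2.32-fold lower (2.28 to 2.365), with 879 CPM in control and 15154 CPM in HPR skin. *Sprr1a* was 2.7-fold lower (2.52 to 2.9) and *Sprr2h* 2.46-fold (1.8 to 3.42). These genes lie in 1 cluster and are similar in sequence, so a division of reads among them is possible. Their promoters are shown because many of them hold the AP-1 site TGACTCA. It was matched for 8 of 12 list genes (66.7%). The share was 93 of 1870 genes measured in epidermal spots (4.97%) and 1709 of 32851 promoters in all (5.20%). Capitals mark the matches, which in *Sprr1a* begin at -146 and -116 and in *Sprr2h* at -198.
Sprr1a (chr3:92485832-92486131, minus strand): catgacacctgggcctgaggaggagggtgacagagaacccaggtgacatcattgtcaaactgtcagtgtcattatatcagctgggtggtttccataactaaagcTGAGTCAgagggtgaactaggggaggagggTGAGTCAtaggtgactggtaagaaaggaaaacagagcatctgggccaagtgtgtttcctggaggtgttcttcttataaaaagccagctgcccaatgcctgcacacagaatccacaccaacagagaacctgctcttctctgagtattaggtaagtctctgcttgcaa
Sprr2h (chr3:92385435-92385734, plus strand): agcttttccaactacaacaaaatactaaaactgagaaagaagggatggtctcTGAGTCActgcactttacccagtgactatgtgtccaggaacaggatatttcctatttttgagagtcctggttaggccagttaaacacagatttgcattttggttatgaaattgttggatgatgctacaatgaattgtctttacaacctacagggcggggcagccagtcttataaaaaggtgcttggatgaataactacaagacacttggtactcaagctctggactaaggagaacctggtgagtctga
*Sprr1b* was not among the list genes with a match. The motif was present in 14 of 173 genes called lower (8.09%) and 6 of 90 called higher (6.67%), beside 4.97% of measured genes. Whether AP-1 factors bear on these values was not tested. As a mean over spots, in place of summed UMIs, the list's median was -0.46. For *Sprr1b* the median epidermal spot held 10083 CPM in UVR skin and 9330 CPM in retinol skin. Its lower quartiles were 2904 and 3115 CPM and its upper quartiles 34438 and 17977 CPM, so the difference lay in the higher spots. *Sprr1a*, *Sprr1b* and the list's median turned direction when read by the spot grid.

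Genes that join keratinocytes to each other were lower in part. Of 17 desmosome and adherens junction genes 5 were called lower and none higher (median -0.75). The plakophilin *Pkp3* was 3.28-fold lower (2.8 to 3.86) and *Perp*, a p53-controlled desmosome gene, 2.87-fold (1.87 to 4.59), while *Dsp*, the linker to keratin filaments, was 1.385-fold lower and *Jup*, plakoglobin, had a ratio of 1.08. Among 10 tight junction and connexin genes 3 were called lower: *Gjb2*, an epidermal connexin (2.6-fold, 2.26 to 3.0), *Cldn4* (2.435-fold) and *Cgn* (2.685-fold). *F11r*, also of tight junctions, had a ratio of 1.54. Of 11 kallikreins and protease inhibitors, which control shedding of horny cells, 5 were called lower and none higher. Among these 5 were *Klk8* (2.34-fold, 1.59 to 3.55) and *Cst6* (3.23-fold, 2.16 to 4.995), a protease inhibitor but not one of kallikreins. *Pkp3*, *Gjb2* and *Cldn4* turned direction when read by the spot grid.

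Genes that bind, convert or sense retinoids differed little as a group. Of 14 measured members of that list 1 was called lower and none higher, with a median of -0.16, close to that of all genes. The called gene was *Cyp2s1*, an epithelial cytochrome P450, at 196 CPM in UVR skin and 19.35 CPM in retinol skin (10.1-fold lower, 6.53 to 16.5). By strip it was at 151, 152, 227 and 244 CPM in UVR skin and 26.55, 7.32, 34.8 and 10.35 CPM in retinol skin, and control skin had 17.8 CPM on 3 UMIs. *Crabp2*, the protein that carries retinoic acid to its receptor and is itself a classic retinoid-induced gene of skin, stood at 1969 CPM in UVR skin and 1141 CPM in retinol skin, 1.73-fold lower (1.62 to 1.84). Control skin had 677 CPM of it and HPR skin 1476 CPM. *Fabp5*, a fatty acid carrier that also binds retinoic acid, was 1.32-fold lower. The receptor genes *Rarg* and *Rxrb* had ratios of 1.71 (1.59 to 1.84) and 1.6 (1.11 to 2.32), below the rule, and their strips did not overlap between the sections. *Dhrs3*, which returns retinal to retinol, had a ratio of 0.848 (0.519 to 1.35). Of 27 genes in the matrix listed as reported to respond to retinoids, 7 reached 50 UMIs. In epidermal spots 14 of the 27 were at 0 in retinol skin and 7 in UVR skin, which had more UMIs. Of the 7 measured, *Hbegf* and *Smad3* were called higher and none lower. Read by the spot grid, *Crabp2*, *Fabp5* and the medians of both lists turned direction, with log2 ratios of 1.12 for *Crabp2* and 2.45 for *Fabp5*.

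Ligands of the EGF receptor, the main growth signal of keratinocytes, differed in direction. *Hbegf*, a heparin-binding ligand, stood at 46.8 CPM in UVR skin and 156 CPM in retinol skin, a ratio of 3.33 (2.58 to 4.31), and no UMI of it was present in control skin, which allows up to 17.8 CPM. Its strips ran at 18.1, 36.4, 65.9 and 62.25 CPM in UVR skin and 110, 230, 201 and 86.25 CPM in retinol skin, uneven along both sections but without overlap. *Areg*, amphiregulin, had a ratio of 1.91 (1.59 to 2.29) with overlapping strips of 74.4, 90.98, 146 and 145 CPM in UVR and 106, 505, 228 and 51.75 CPM in retinol skin. *Ereg*, epiregulin, was 2.55-fold lower (1.92 to 3.44) with overlapping strips. The receptors *Erbb2* and *Erbb3* had ratios of 1.035 and 1.32. *Smad3*, which relays TGF-beta signals, had a ratio of 2.71 (2.12 to 3.475) in epidermal spots. *Ereg* and *Smad3* turned direction when read by the spot grid.

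Wnt ligands differed in both directions. Of 17 measured genes of Wnt signalling 3 were called higher and 3 lower. *Wnt3* (ENSMUSG00000000125, chromosome 11, 103774175 to 103818021), a ligand of the canonical pathway, stood at 67.15 CPM in UVR skin and 462 CPM in retinol skin, a ratio of 6.87 (5.69 to 8.34). Strip values were 48.3, 105, 62.4 and 54.9 CPM in UVR skin and 554, 490, 348 and 452 CPM in retinol skin, far apart, while control skin had 392 CPM and HPR skin 333 CPM. UVR skin was therefore the section that stood apart for this gene. *Wnt7b* and *Wnt10a* had ratios of 2.83 (2.135 to 3.77) and 2.405 (2.23 to 2.6), and *Axin2*, a feedback target of the canonical pathway, one of 1.65 (1.36 to 2.0). Called lower were *Wnt5a*, the main non-canonical ligand (2.5-fold, 2.08 to 3.03), *Wnt3a* (3.14-fold, 2.16 to 4.72) and *Dkk3* (72 and 4 UMIs). Of 5 Notch pathway genes only *Notch1* was called. *Wnt3*, *Wnt7b* and *Axin2* turned direction when read by the spot grid.

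The lipoxygenases of the epidermis showed the widest range of log2 ratios among the outcome lists. *Alox8* (ENSMUSG00000020891, chromosome 11, 69183885 to 69197843), whose enzyme oxidises arachidonic acid in mouse skin, stood at 56.3 CPM in UVR skin and 1094 CPM in retinol skin, a ratio of 19.45 (16.1 to 23.7). Its strips ran at 149, 28.3, 38.15 and 16.5 CPM in UVR skin and 664, 1024, 1837 and 890 CPM in retinol skin, so the lowest retinol strip was above the highest UVR strip. Control skin had no *Alox8* UMI, which allows up to 17.8 CPM, and HPR skin had 557 CPM. *Alox12e* (ENSMUSG00000018907, chromosome 11, 70315610 to 70322720), another lipoxygenase found in epidermis, stood at 165 CPM in UVR skin and 914 CPM in retinol skin, a ratio of 5.54 (4.9 to 6.27). Its UVR strips were uneven, at 207, 255, 191 and 18.3 CPM, and its retinol strips were at 1005, 852, 615 and 1156 CPM. Opposite to these, *Alox12* was 10.4-fold lower (5.68 to 21.05) on 222 and 11 UMIs. *Alox12b*, which oxidises barrier ceramides, was 3.15-fold lower (2.235 to 4.53), and its partner *Aloxe3* had a ratio of 0.739 (0.431 to 1.23). Of the other barrier lipid genes *Elovl1* was 2.42-fold lower and *Sptlc2*, a subunit of the enzyme that starts ceramide synthesis, had a ratio of 1.49. In all, 2 of 16 members were called higher and 3 lower.

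**Figure D4:**
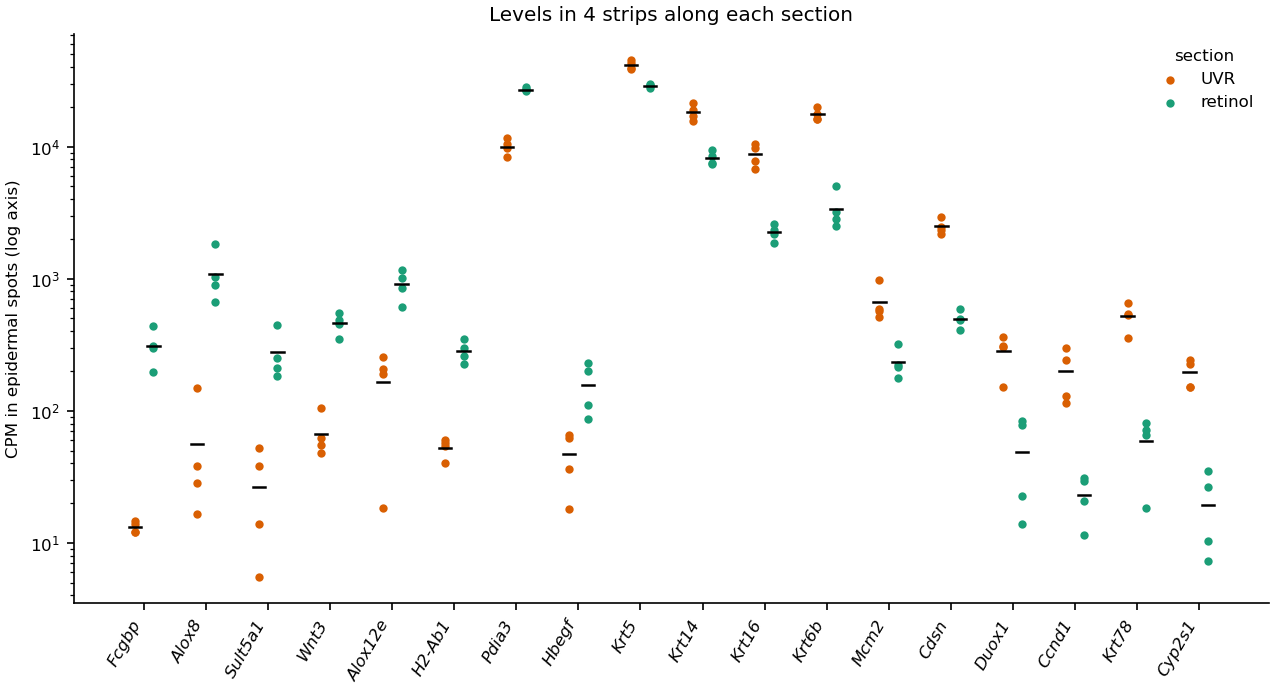
CPM of 18 genes in epidermal spots (vertical, log axis) in 4 strips along the UVR section and 4 along the retinol section. Points are strips, which are parts of 1 section and not replicates, and black bars are the value over all epidermal spots. The strips of *Alox8*, *Wnt3*, *Pdia3*, *Krt16* and *Ccnd1* do not overlap between the sections.

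Genes with high ratios by the naming rule included *Fcgbp*, *Alox8* and *Sult5a1*. *Fcgbp* (ENSMUSG00000047730, chromosome 7, 28071236 to 28120864), a large secreted protein that binds the Fc part of IgG, had 28 UMIs in UVR skin and 337 in retinol skin, a ratio of 23.45 (15.9 to 35.8). Control skin had 131 CPM of it and HPR skin 90.7 CPM, so retinol skin was the highest of the 4 sections. *Sult5a1*, a cytosolic sulfotransferase, had a ratio of 10.5 (7.88 to 14.2). It was the only member of the sulfotransferase and phase 2 list called higher, and the other 4 measured members were called lower. Those were *Cyp2s1*, *Gsto1*, a glutathione transferase (5.92-fold lower, 4.5 to 7.93), *Sult2b1*, the cholesterol sulfotransferase (4.72-fold), and *Ephx1* (2.84-fold).

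Next in order were *Srcin1*, an adaptor that restrains Src kinase (ratio 5.05, 4.63 to 5.51), *Smox*, spermine oxidase (4.85, 4.35 to 5.42), and *Map3k14*, the kinase of non-canonical NF-kappaB signalling (3.83, 3.29 to 4.46). *Ahr*, the aryl hydrocarbon receptor, had a ratio of 3.565 (3.07 to 4.15), *Sh2b2* one of 3.45, *Tnfaip2* one of 3.43 and *Ccdc71l* one of 3.26. Chosen after their values were seen, the epidermal transcription factors *Gata3* and *Elf3* had ratios of 2.63 (2.5 to 2.77) and 3.02 (2.49 to 3.67). *Gata3* stood at 1183 CPM in UVR skin and 3110 CPM in retinol skin against 2304 CPM in control and 2519 CPM in HPR skin. UVR skin was thus the lowest of the 4 sections for *Gata3*. At the other end, *Tppp3*, a tubulin-binding protein, had the lowest ratio among genes with at least 200 UMIs, with 280 UMIs in UVR and 11 in retinol skin (13.1-fold lower, 7.19 to 26.5). *Ecm1*, a secreted matrix protein of skin, was 6.32-fold lower, *Slc25a10*, a mitochondrial carrier, 5.69-fold, *Tcf23*, a basic helix-loop-helix factor, 5.61-fold, and *Igfbp2*, which binds insulin-like growth factors, 5.57-fold. *Fcgbp*, *Srcin1*, *Gsto1*, *Tcf23* and the median of the phase 2 list turned direction when read by the spot grid.

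Oxidant-handling genes were lower in retinol skin, with 6 of 14 called lower and none higher (median -0.86). *Duox1*, the dual oxidase that makes hydrogen peroxide, was 5.81-fold lower (4.38 to 7.85), and its maturation factor *Duoxa1* was 11.9-fold lower on 116 and 5 UMIs. *Mt1*, a metal-binding metallothionein, stood at 4916 CPM in UVR skin and 1922 CPM in retinol skin, 2.56-fold lower (2.44 to 2.68), with 2214 CPM in control skin. *Mt2* was 1.6-fold lower and did not reach the rule. *Cat*, catalase, was 3.31-fold lower (1.63 to 7.59) and *Gpx1* 1.21-fold lower. *Duox1*, *Gpx1* and the list's median turned direction when read by the spot grid.

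UVR damage activates the factor p53, and the list of p53 targets and growth-arrest genes was split. Of 15 measured members 3 were called higher and 3 lower. Not all of them are controlled by p53, and *Cdkn2b* is in the list as a growth-arrest gene. *Cdkn1a*, the p53-induced inhibitor of cell division, stood at 6401 CPM in UVR skin and 4805 CPM in retinol skin, 1.33-fold lower (1.29 to 1.38), and control skin had 4773 CPM. *Phlda3* and *Aen*, further p53 targets, were 2.67-fold and 2.01-fold lower. *Cdkn2b*, an inhibitor of the cyclin D kinases, had a ratio of 2.66 (2.37 to 2.99), *Bbc3*, which promotes cell death, 2.27 (1.85 to 2.78) and *Btg2* 2.06 (1.52 to 2.8). Immediate early and AP-1 genes had 1 of 14 members called, *Egr1*, which was higher on 30 and 42 UMIs, and a median of 0.18. *Fosl1* had a ratio of 0.515 (0.264 to 0.941) and *Junb* one of 1.61 (1.45 to 1.8). *Cdkn2b*, *Phlda3* and *Aen* turned direction when read by the spot grid.

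Chaperones of the endoplasmic reticulum, which fold secreted proteins, were shifted upward. All 11 measured members of their list had log2 ratios above 0, 3 of them called higher, with a median of 0.69. These members include *Atf4* and *Xbp1*, which are transcription factors and not chaperones. *Pdia3* (ENSMUSG00000027248, chromosome 2, 121413902 to 121438687), a disulfide isomerase, stood at 9971 CPM in UVR skin and 27028 CPM in retinol skin, a ratio of 2.71 (2.66 to 2.76). Its strips were even, at 11567, 10398, 8357 and 9833 CPM in UVR skin and 28210, 27195, 26589 and 26188 CPM in retinol skin. Control skin had 12675 CPM and HPR skin 20728 CPM, so both treated sections lay above both others. *Sdf2l1* and *Hyou1* had ratios of 2.445 (2.19 to 2.73) and 2.2 (1.715 to 2.82). *Hspa5*, BiP, and *Hsp90b1* had ratios of 1.55 and 1.61, below the rule, with strips that did not overlap. The 2 stress factors in the list, *Atf4* and *Xbp1*, which drive such genes, were near 1 at 1.04 and 1.12.

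The class II antigen presentation list was higher in retinol skin, with 4 of 5 measured members called and a median of 1.27. That median is the value of *Epcam*, a called member that is an adhesion gene and not part of class II presentation. The other measured members, *H2-Ab1*, *Cd74*, *H2-DMa* and *H2-Eb1*, had log2 ratios of 2.43, 1.52, 1.23 and 1.00. *H2-Ab1*, a class II beta chain carried in skin chiefly by Langerhans and dendritic cells, stood at 52.5 CPM in UVR skin and 283 CPM in retinol skin, a ratio of 5.39 (4.32 to 6.76). The 4 strips held 60.3, 56.6, 53.8 and 40.3 CPM in UVR skin and 349, 227, 259 and 297 CPM in retinol skin, and control skin had 220 CPM. *Cd74*, the invariant chain, had 39.7 CPM in UVR, 114 in retinol, 182 in HPR and 534 in control skin. For both genes UVR skin was the lowest of the 4 sections, and its strips of *Cd74* lay below those of retinol skin. All 6 Langerhans markers were present in both sections. They summed to 121 CPM in UVR and 462 CPM in retinol skin, against 902 CPM in control skin. The 3 of them that were measured, *Cd74*, *Epcam* and *H2-Ab1*, also belong to the class II list, so this sum does not stand apart from it. A spot with more such cells and one with more transcript per cell cannot be told apart. The interferon-related genes *Psmb8*, an immunoproteasome subunit, and *Irf9* had ratios of 2.56 (1.825 to 3.6) and 3.025 (1.98 to 4.67). *Ccl8*, a chemokine, had 13 UMIs in UVR and 60 in retinol skin (ratio 8.99, 4.88 to 17.9), and was 1 of only 2 members measured in a list of 37 cytokines and chemokines. As a mean over spots the class II median was 0.81. *Cd74* and the medians of the class II and Langerhans lists turned direction when read by the spot grid.

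Collagen transcripts, which mark dermis within or under an epidermal spot, were called higher in retinol skin for 5 of 13 measured genes and called lower for none. *Col3a1* and *Col1a1*, the fibrillar collagens of dermis, had ratios of 2.95 (2.25 to 3.89) and 2.12 (1.39 to 3.25), *Col5a1* 2.655 (2.27 to 3.105) and *Col16a1* 2.935 (2.48 to 3.48). The collagens that anchor epidermis itself did not follow: *Col17a1* had a ratio of 0.763 (0.593 to 0.975) and *Col7a1* one of 1.16 (0.677 to 1.95). Summed fibroblast markers stood at 211 CPM in UVR and 443 CPM in retinol epidermal spots. The 3 measured markers, *Col1a1*, *Col1a2* and *Col3a1*, are themselves collagens, so this sum does not stand apart from the values above. How much dermis a spot covers was not tested. *Mmp28*, an epidermal metalloprotease, had a ratio of 4.45 (3.26 to 6.13), and *Fbln2* was 3.62-fold lower. *Col16a1* and *Mmp28* turned direction when read by the spot grid.

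**Figure D5:**
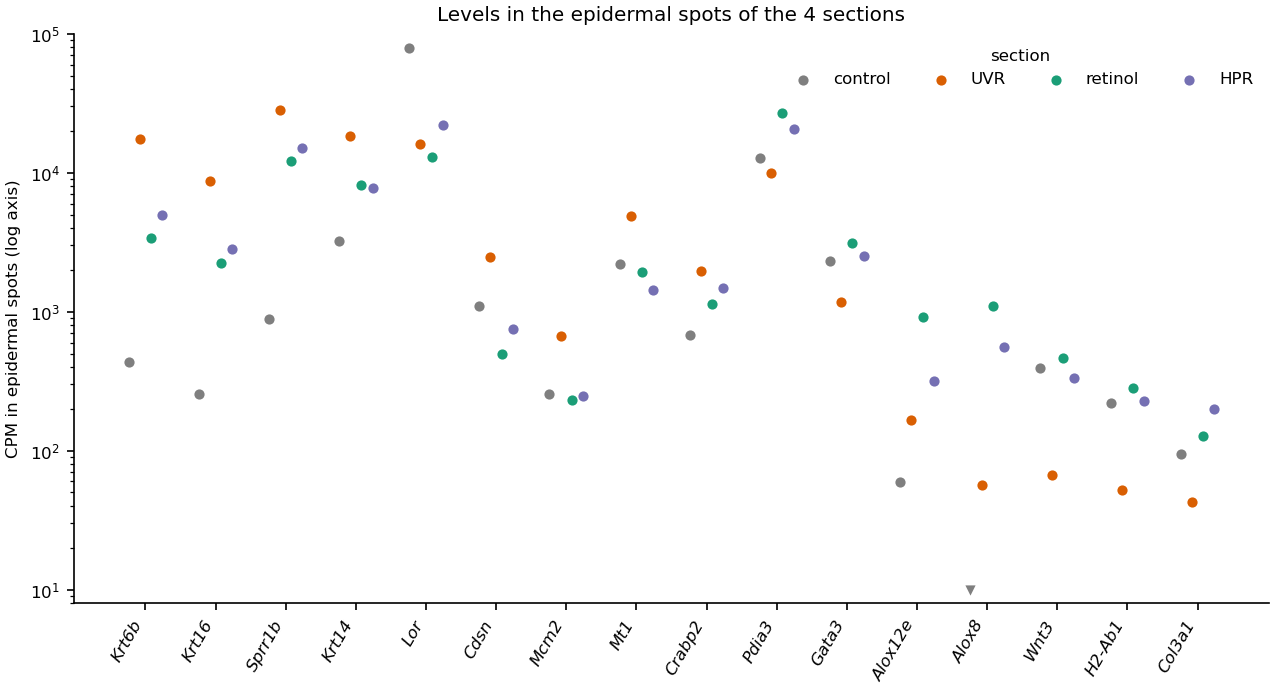
CPM of 16 genes in the epidermal spots of control, UVR, retinol and HPR skin (vertical, log axis), with 1 point a section and so no error bar. The triangle marks *Alox8* at 0 UMIs in control skin, drawn at the foot of the axis. *Krt6b* runs from 433 CPM in control to 17489 in UVR skin with retinol at 3386 CPM, whereas *Alox8* is highest in retinol skin.

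Spots outside the epidermal rule, 386 in UVR and 368 in retinol skin with medians of 695 and 534 UMIs, differed in tissue as well as treatment. Skeletal muscle markers made up 21.4% of their UMIs in UVR skin and 8.04% in retinol skin. Of 1864 genes with at least 50 UMIs there, 389 (20.9%) were called higher in retinol skin and 254 (13.6%) lower, with a median log2 ratio of 0.314. The lowest genes included *Cmya5* (5.67-fold) and *Pygm* (4.87-fold), both of muscle, and 11 of 14 muscle markers were called lower. Among the highest were *Alox8*, with 3 UMIs in UVR and 113 in retinol skin, and *Alox12e* (38 and 585). *Fgfbp3*, *Smox* and *Ppfia3* were also among them, with ratios of 11.8, 9.77 and 7.48. *Krt5* made up 0.673% and 0.978% of the UMIs of these spots, which include any epidermal spot under 1000 UMIs.

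After seeing this imbalance, spots with muscle markers of at least 1% were left out, which kept 196 UVR and 220 retinol spots with 118204 and 210784 UMIs. The median log2 ratio of 1021 genes was then 0.09, with 75 called higher and 53 lower. *Alox12e* was still higher, on 35 and 578 UMIs (ratio 9.26, 6.58 to 13.4). Collagens changed sides with this step. Over all such spots their median log2 ratio was 0.71 in 9 genes, and without the muscle-rich spots it was -0.78 in 7 genes, 2 of them called lower and none higher. No direction for dermal collagen therefore held in both settings. The antibody genes of plasma cells were lower in both: *Igha* had 522 UMIs in UVR and 146 in retinol skin over all such spots (2.65-fold lower, 2.205 to 3.21), and *Igkc* was 2.67-fold lower (1.49 to 5.1).

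Over all kept spots of each section, 124 of 2932 genes (4.23%) were called higher in retinol skin and 267 (9.11%) lower. The ends of this comparison were epidermal genes again. Among the highest were *Fcgbp* (25.8), *Alox8* (19.3), *Sult5a1* (10.8), *Alox12e* (7.37) and *Wnt3* (6.73). By the naming rule, with at least 200 UMIs, the 6 lowest were *Cyp2s1*, *Krt78*, *Alox12*, *Ccnd1*, *Tppp3* and *Duox1*, from 10.03-fold to 5.65-fold lower. Genes with fewer UMIs also lay in that range or below it, *Duoxa1* at 8.57-fold lower among them.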

How the data were processed

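Skin sections of 4 groups were profiled on 2 Visium capture areas; the libraries used probes of the kit for fixed tissue on fresh-frozen sections, per the labels' protocols. Per the submitters' processing notes the authors used Space Ranger 2.0.0 and mm10, and Seurat 4.1.0 is named without a role; the deposited values are raw UMI counts of 19465 genes in each spot. Sections were separated at the gap between tissue pieces on each area. Spots with at least 200 UMIs were kept, counts were summed over spots and scaled to CPM, and ratios carry the exact (Clopper-Pearson) 95% interval of how a gene's UMIs divide between both sections. A gene with no UMI on 1 side was given 3 counts there, and its ratio is a bound. UMIs count captured molecules, and intervals and limits cover counting error only. Kept totals were 2558616 UMIs in UVR, 1414976 in retinol, 326095 in control and 1249928 in HPR skin, with medians of 1641, 982, 527 and 653 UMIs per spot.

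The named genes are the 15 highest and 15 lowest in epidermal spots with at least 200 UMIs, at least 2-fold and of 1 direction between the left and right image sides of both sections, the 6 at each end over whole sections and over other spots (there with at least 100 UMIs), up to 3 members at each end of a list with its 2 most abundant members, and fixed skin genes; further list members are named, some names are left out, and *Krt6a*, *Gata3*, *Elf3* and others were picked after their values were seen. The members, the 36 outcome lists and the 17 marker lists were chosen with earlier results of these data known. Alternatives covered scaling, spot and gene minimums, a pseudocount, thinning, image sides, the epidermal rule and the section reading; those for muscle, *Krt5*-led or *Lor*-led spots for other markers and for the straight edge of retinol skin were added after seeing the data. Gene positions and promoters come from RefSeq tables of GRCm38.p6, the assembly of mm10, joined by symbol; 1870 of 2378 genes had a promoter there. The calculations, checked on simulated counts, used scipy 1.17.1, numpy 2.4.6, matplotlib 3.10.9, pandas 2.3.3 and Python 3.11.15.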

Additional observations from a re-analysis of the deposited data

Results flagged for a closer look

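In 4 genes the epidermal spots and the other kept spots differed by at least 2-fold in opposite directions between retinol and UVR skin, out of 895 genes compared in both; 34 were higher and 13 lower in both. These differences between regions were not tested. *Sprr1b*, an envelope precursor, had log2 ratios of -1.21 in epidermal and 1.18 in other spots, and *Hist4h4*, a histone, -1.04 and 1.14. *Fa2h*, which hydroxylates fatty acids in sebaceous glands and barrier lipids, had -1.68 and 2.84. *Stk40*, a kinase-like protein, had 1.09 and -1.04 on 111 and 113 UMIs. Muscle markers made up 21.4% and 8.04% of UMIs in the other spots of UVR and retinol skin. In the other spots with muscle markers under 1%, *Fa2h* had a log2 ratio of 1.57, *Sprr1b* 0.50 and *Hist4h4* 0.10, so 1 of these 3 stayed past 2-fold.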

How the results depend on the processing

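Of 112 named genes past 2-fold in epidermal spots, every one with a value kept its direction under other size factors, without the 20 most abundant genes, from 500 UMIs a spot, with a pseudocount, after thinning, on the left image side, as a mean of spots, in *Krt5*-led, *Lor*-led or muscle-poor spots, left of the straight edge of retinol skin and by other epidermal markers at 0.1%. Fewer stayed past 2-fold: 91 of 112 as a mean of spots, 76 of 91 on the left and 93 of 101 on the right image side, 64 of 69 in *Lor*-led spots, 19 of 75 by the spot grid, and 98 of 107 left of the straight edge. Of 10 list medians past 2-fold, 7 stayed so as a mean of spots, where small proline-rich genes had -0.46, class II genes 0.81 and fibroblast markers 0.54. The left side gave -0.81 for small proline-rich genes, and *Lor*-led spots -0.69 for histones. Directions turned in 3 other settings. On the right image side *Stk40* gave a log2 ratio of -0.11, and with the epidermal rule at 10%, which left 4 retinol and 21 UVR spots, *Cnfn* gave 0.09. Other epidermal markers at 1% left no spot, so that alternative gave no value.

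Reading the sections by the spot grid, which compares the HPR-labelled with the control-labelled piece, turned 31 of 75 genes with a value and 5 list medians. Log2 ratios became 3.08 for *Krt6a*, 3.53 for *Krt6b*, 3.47 for *Krt16*, 1.26 for *Krt14*, 4.11 for *Sprr1b*, 3.89 for *Sprr1a*, 3.34 for *Tcf23*, 2.39 for *Gjb2*, 1.97 for *Aqp5*, 1.47 for *Ticrr* and 1.02 for *Ereg*. They were 0.90 for *Duox1*, 0.86 for *Cldn4*, 0.68 for *Dsg1b*, 0.55 for *Asprv1*, 0.35 for *Pkp3*, 0.24 for *Hist4h4*, 0.19 for *Dsc1*, 0.18 for *Hist1h2bk*, 0.14 for *Gsto1*, 0.09 for *Phlda3* and 0.08 for *Aen*. Below 0 were *Cd74* (-1.55), *Srcin1* (-1.01), *Wnt7b* (-0.78), *Fcgbp* (-0.53), *Cdkn2b* (-0.46), *Col16a1* (-0.30), *Mmp28* (-0.26), *Wnt3* (-0.23) and *Smad3* (-0.01). List medians were 3.28 for stress keratins, 4.0 for small proline-rich, 1.24 for phase 2, -1.04 for class II and -1.25 for Langerhans genes. Under 2-fold, 11 of 34 genes and 13 of 30 list medians turned, with *Krt5* at 0.22, *Krt17* at 1.57, *Krt1* at -0.62, *Axin2* at -0.87, *Gpx1* at 1.09, *Ppfia3* at -0.05, *Igha* at -2.67, *Slc2a1* at 1.19 and *Aqp3* at 2.93 beside *Crabp2* and *Fabp5*. The medians were those of tight junction (0.78), kallikrein (0.50), retinoid handling (1.12), retinoid-responsive (1.15), barrier lipid (0.64), eicosanoid (-0.37), antioxidant (0.28), p53 (0.06), immediate early (-0.09), other dermal matrix (-2.61), glycolysis (0.40), translation (0.04) and channel (0.25) genes. Genes called lower came to 68 in epidermal spots and 122 over the section, and epidermal shares to 28.1% and 21.2% for the retinol and UVR roles.

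Counts called higher and lower in epidermal spots were 335 and 824 from 20 UMIs, 40 and 60 from 500 UMIs, 847 and 1821 without a minimum but with 1 CPM added, and 12 and 39 with the rule at 10%, where epidermal shares were 0.735% and 3.25%. Over the section they were 407 and 858, 51 and 71, and 1018 and 1583 under the first 3 of these. Genes called lower on the left image side were 123 of 1433 in epidermal spots (8.58%) and 142 of 1827 over the section (7.77%), and 80 of 805 in *Lor*-led spots (9.94%), against 10.2% of 2378 in all epidermal spots and 9.11% of 2932 over whole sections. Epidermal spots from 500 UMIs were 45.9% of UVR spots. No paired analysis was possible because each group had 1 section. Depth limits genes under about 50 UMIs, and the single section a group limits every comparison.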

Other observations

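In epidermal spots none of 12 measured genes of glycolysis and the hypoxia response was called in either direction, with a median log2 ratio of -0.38. The glucose transporter *Slc2a1* had a ratio of 0.884 (0.8425 to 0.928) and *Hk2*, a hexokinase, one of 1.18 (1.02 to 1.37). *Pmvk*, of cholesterol synthesis, was 2.49-fold lower. Of 11 genes of ribosome biogenesis and translation 2 were called lower, *Npm1*, nucleophosmin (4.79-fold, 3.56 to 6.57), and *Ncl*, nucleolin (2.45-fold, 1.54 to 4.075).

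Water and ion channels were mixed. *Aqp3*, the water and glycerol channel of the basal layer, stood at 4516 CPM in UVR skin and 3453 CPM in retinol skin (1.31-fold lower, 1.26 to 1.36), with 475 CPM in control skin. *Aqp5*, a water channel of secretory epithelia, was 4.94-fold lower (3.48 to 7.22), the potassium channel *Kcnk1* 3.97-fold and *Scnn1b*, a subunit of the epithelial sodium channel, 2.53-fold. *Kcnc4*, a voltage-gated potassium channel, had a ratio of 3.385 (2.45 to 4.72). A hair follicle keratin, *Krt73*, had 2 UMIs in UVR and 69 in retinol epidermal spots and 19 in HPR skin, while 1 other of the 15 hair follicle markers, *Msx2*, reached 50 UMIs (ratio 0.862, 0.503 to 1.43). *Aqp5* turned direction when read by the spot grid.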
